A study of Homo sapiens with 9 samples.

Results

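The human keratin and keratin-associated protein genes lie in 2 clusters, and their transcript levels were followed here in MDA-MB-231 cells, a triple-negative breast cancer line, in which a lentiviral short hairpin RNA targeted CTDP1. The members were taken by position on the hg19 build: 42 deposited rows lying wholly between 38.8 and 39.79 Mb of chromosome 17 (type I keratins and keratin-associated proteins), 54 between 52.56 and 53.35 Mb of chromosome 12 (type II keratins and the type I gene KRT18), and 23 between 38.8 and 39.79 Mb of HSCHR17_4_CTG4, an alternate version of the chromosome 17 sequence. These 119 rows are part of 57773 in each file, and 117 of them have an interval of their own. The remaining 2 share chr17:38810917-38821433, so they could not be matched between files and were not tested. Their summed level was 0.11 to 0.72 TPM over the libraries.

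The study holds 9 RNA libraries in 3 groups of 3: the scrambled hairpin shScr, and the hairpins shCTDP1-#1 and shCTDP1-#2. All groups share the same line, lentiviral delivery and puromycin selection. Cells without a hairpin were not analysed here. CTDP1 encodes a phosphatase that acts on the tail of the largest subunit of RNA polymerase II. No label states that replicates were grown as separate cultures, so each p-value below speaks of the spread among libraries, and that spread could be technical.

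Keratins are the intermediate filament proteins of epithelial cells. A type I and a type II keratin pair to build each filament, and the pairs differ with the tissue: KRT8 with KRT18, and also KRT7 and KRT19, in simple epithelia such as the luminal cells of the breast, KRT5 with KRT14 in basal cells, and a separate set in hair. Keratin-associated proteins crosslink keratin filaments in the hair shaft. In RefSeq on GRCh38.p14, the type II cluster runs from KRT80 and KRT7, through the hair keratins KRT86, KRT81, KRT83, KRT85, KRT84 and KRT82, to a long stretch of epithelial keratins that ends in KRT8 and KRT18, 27 keratin genes in all. The type I cluster there holds 28 keratin and 34 keratin-associated genes, the latter in 1 block between KRT40 and KRT33A. The deposited files give positions without gene names, and the annotation at hand is of another build. Each interval is therefore called by its hg19 position, without assigning a name to any single interval. The stretches of the clusters are described by what they are known to hold. With 54 rows in the chromosome 12 region beside 27 keratin genes, an interval in a region need not be a keratin gene.

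Most of both clusters was silent or nearly so in these cells. Of the 117 intervals, 49 (41.9%) were listed at 0 in all 9 libraries, against 47.9% of all 55527 intervals of the series. The values are taken as TPM, a unit scaled for transcript length and to the same total in each library, so levels can be compared between intervals. With that fixed total each value is a share of its library. Every rise or fall below is therefore relative, and a change in the total amount of RNA would not be seen. Only 14 intervals (12%) reached 1 TPM in any library, against 30.1% of all intervals. In the 500 kb to either side of the regions, 45.8% of 48 intervals on chromosome 12 and 54.5% of 22 on chromosome 17 reached that level.

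The levels stood in a few islands. At the end of the chromosome 12 region that holds KRT18, 2 of 4 intervals reached 5 TPM. In the first stretch of that region, with starts from 52562780 to 52644250, 2 of 7 did, and in the hair keratin stretch, with starts from 52643084 to 52807744, 1 of 12. None of the 31 intervals of the epithelial type II stretch, with starts from 52817854 to 53279213, reached 1 TPM. On chromosome 17, 2 of 11 intervals in the first type I stretch (starts from 38821876 to 38975358) and 2 of 17 in the last (starts from 39533902 to 39775689) reached 5 TPM, while none of the 12 in the keratin-associated stretch between them reached 1 TPM. On the alternate sequence 1 of 23 reached 5 TPM.

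**Figure D1:**
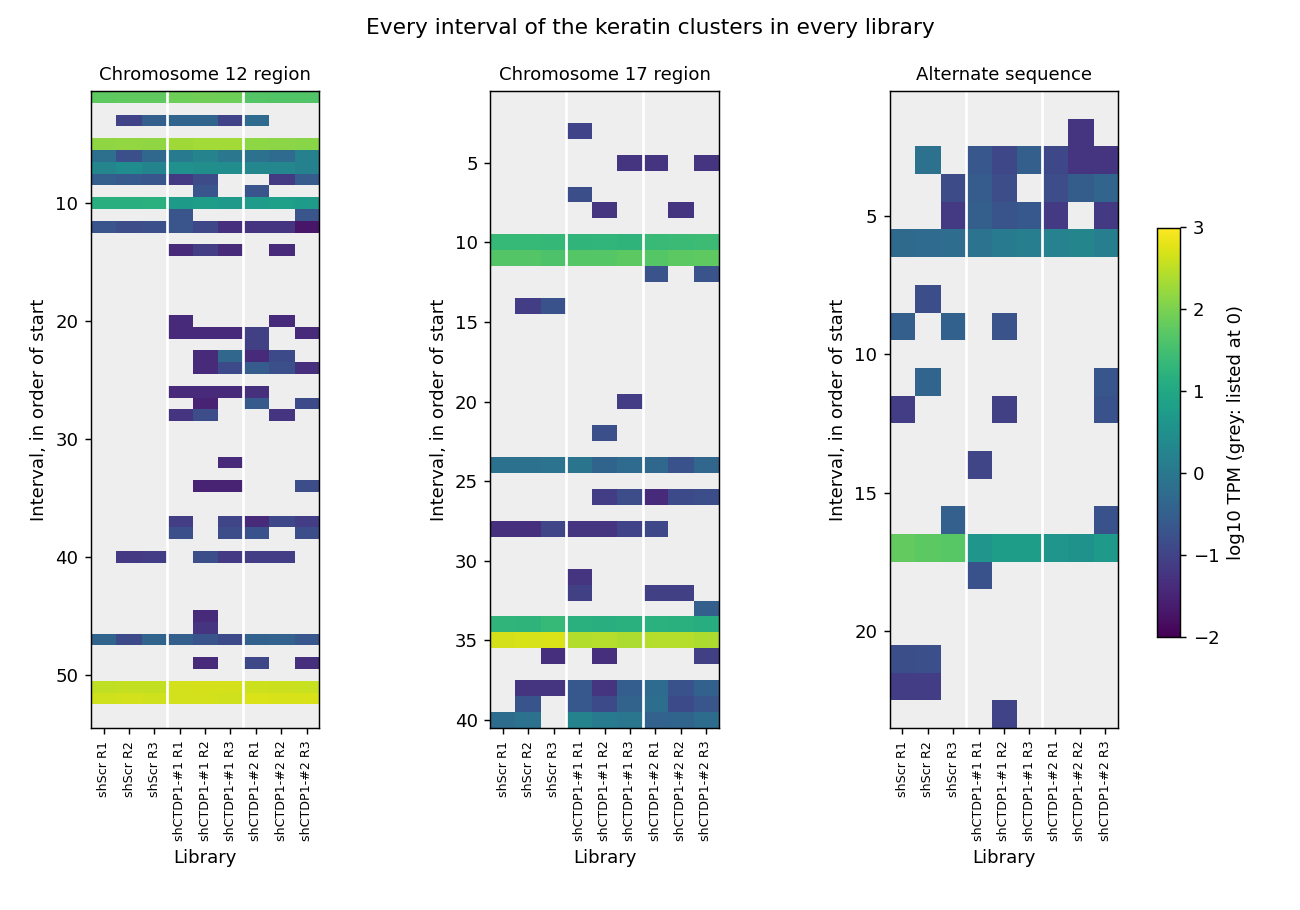
Level of each of the 117 intervals (vertical axis, in order of start along each sequence) in each of the 9 libraries (horizontal axis), as log10 TPM by colour, with grey for a value of 0 and white lines between the groups. Bright rows are the few intervals above 5 TPM, and in the middle of the chromosome 12 panel low values appear in the knockdown columns where the shScr columns are mostly grey.

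A test was made where 3 or more libraries reached 1 TPM, which left 13 of the 117 intervals: 7 on chromosome 12, 4 on chromosome 17 and 2 on the alternate sequence. The limma fit of log2(TPM + 1) covered all 15011 intervals of the series that passed this filter, and the Benjamini-Hochberg adjusted p over all of them had to be under 0.05. With shCTDP1-#1, 6 members rose and 5 fell against shScr. With shCTDP1-#2, 5 rose and 6 fell. Of the 13 members, 2 (chr12:52638832-52641232 and HSCHR17_4_CTG4:39114796-39123271) had no shScr value above 0.7 TPM and passed the filter through knockdown libraries alone, which favours a rise; both are among the 6, and the second is among the 5. Of all tested intervals, 63.1% were called with shCTDP1-#1 (35.4% higher, 27.7% lower) and 64% with shCTDP1-#2 (39.5% higher, 24.6% lower), beside 84.6% of the members in either comparison. Between the hairpins (shCTDP1-#2 against shCTDP1-#1) 2 members were higher and 4 lower, where 50.2% of all tested intervals were called, 30.2% higher and 20% lower. The libraries of the 2 groups did not overlap for 12, 11 and 7 of the 13 members in these 3 comparisons, and for 67.8%, 67.9% and 58% of all tested intervals. After median-of-ratios scaling of the libraries the split with shCTDP1-#2 was 1 higher and 6 lower. That scaling moved the median change of all tested intervals with shCTDP1-#2 from 0.13 to 0.01 on the log2 scale.

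Both comparisons use the same shScr libraries. With both hairpins 4 members fell and 2 rose, and 3 were called in opposite directions. The 2 that rose were chr12:53290977-53343738 and HSCHR17_4_CTG4:39114796-39123271, the latter admitted by its knockdown values; this count was 1 on leaving out any library other than shCTDP1-#1 replicate 1, and 0 after median-of-ratios scaling. A further 2 were called with shCTDP1-#1 alone and 2 with shCTDP1-#2 alone. Over all tested intervals 42.8% were called in the same direction with both (16.5% lower, 26.4% higher) and 5.43% in opposite directions. The median absolute log2 change of the 13 members was 0.41 with shCTDP1-#1 and 0.39 with shCTDP1-#2, beside 0.39 for all tested intervals in either comparison.

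**Figure D2:**
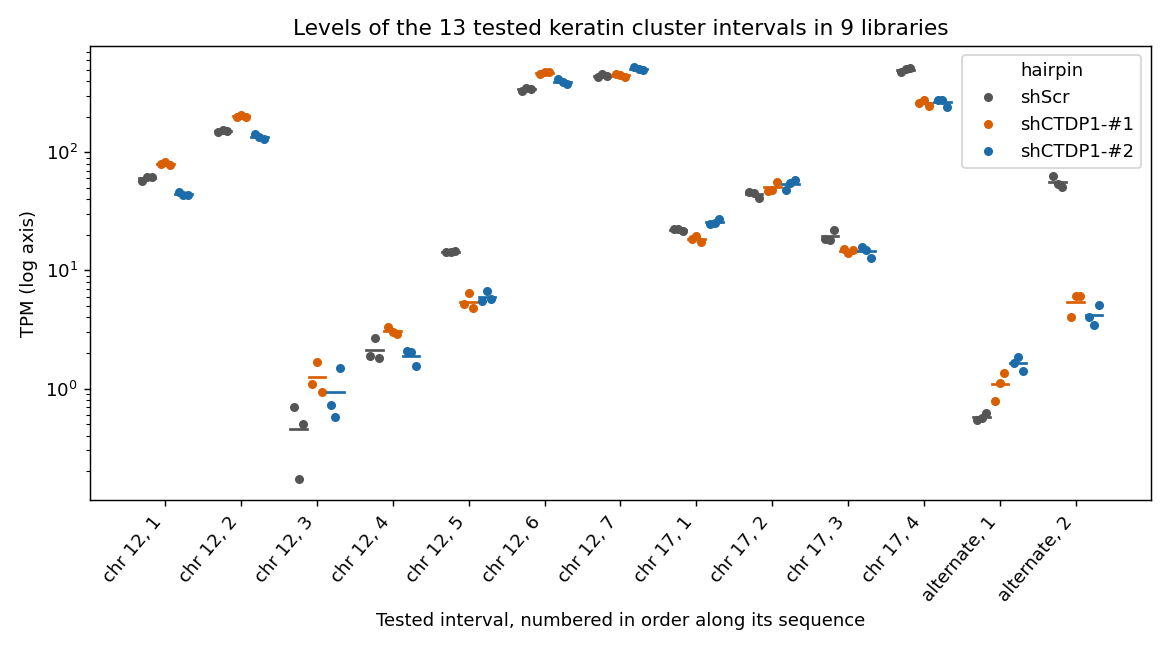
Level in TPM (log axis) of the 13 tested intervals, numbered by start along chromosome 12, chromosome 17 and the alternate sequence; points are single libraries, 3 a group, and bars are group means. All knockdown points lie below all shScr points for interval 5 of chromosome 12, intervals 3 and 4 of chromosome 17 and interval 2 of the alternate sequence.

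The largest loss in TPM was in the last stretch of the type I cluster, which holds KRT19 beside basal and hair keratins. The interval chr17:39679869-39684560 stood at 476.5, 502.52 and 514.16 TPM in the shScr libraries. It was at 259.61, 277.55 and 245.31 TPM with shCTDP1-#1, and at 277.6, 277.12 and 242.93 TPM with shCTDP1-#2. Every knockdown library lay below every shScr library, and the levels with the hairpins overlapped each other. The mean fell to 0.524 times that of shScr with shCTDP1-#1, a log2 change of -0.93 (SE 0.061, limma adjusted p = 4.28e-07), and to 0.534 times with shCTDP1-#2, a change of -0.90 (SE 0.061, adjusted p = 5.4e-07). Between the hairpins the difference was 0.03, with a 95% interval from -0.11 to 0.16. In shScr this was the member with the highest mean, 497.7 ± 19.3 TPM (SD, n = 3), above 444.6 ± 13.1 TPM for chr12:53342655-53346685. With either hairpin both end intervals of the chromosome 12 region stood above it.

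Its neighbour in the same stretch, chr17:39669995-39678781, was lower by a smaller factor. It was at 18.28, 18 and 22.13 TPM with shScr, at 15.09, 13.9 and 14.98 TPM with shCTDP1-#1 and at 15.88, 14.74 and 12.84 TPM with shCTDP1-#2. All knockdown values lay below all shScr values. The log2 change was -0.38 (SE 0.099, limma adjusted p = 0.00639) with shCTDP1-#1 and -0.40 (SE 0.099, adjusted p = 0.00477) with shCTDP1-#2.

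The rest of this stretch was low. The last 3 intervals before the end of the chromosome 17 region, where the RefSeq order has KRT14, KRT16 and KRT17, keratins of basal and activated epithelium, did not pass the filter. The interval chr17:39775689-39781094 was at 0.59, 0.78 and 0 TPM with shScr, at 1.75, 1.19 and 0.92 TPM with shCTDP1-#1 and at 0.37, 0.4 and 0.59 TPM with shCTDP1-#2. Its shCTDP1-#1 values lay above those of both other groups, which overlapped. The interval chr17:39738531-39743173 was at 0 to 0.06 TPM with shScr, 0.06 to 0.31 TPM with shCTDP1-#1 and 0.18 to 0.55 TPM with shCTDP1-#2, and only the last group did not overlap shScr. Between them, chr17:39766030-39772151 was at 0, 0.2 and 0 TPM with shScr, 0.24, 0.13 and 0.39 TPM with shCTDP1-#1 and 0.65, 0.13 and 0.22 TPM with shCTDP1-#2, and its groups overlapped. No test was made of these 3.

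In the first stretch of the type I cluster, which holds KRT10, a keratin of differentiating epidermis, 2 overlapping intervals carried almost all of the level. The interval chr17:38974369-38978847 was at 22.48, 22.3 and 21.74 TPM with shScr, 18.29, 19.65 and 17.55 TPM with shCTDP1-#1 and 24.64, 25.4 and 26.99 TPM with shCTDP1-#2. The 3 groups did not overlap, with shScr in the middle. It fell with shCTDP1-#1 (log2 change -0.25, SE 0.063, limma adjusted p = 0.00558) and rose with shCTDP1-#2 (0.20, SE 0.063, adjusted p = 0.017), and the hairpins differed by 0.45 (adjusted p = 0.000183). The rise was not called after upper-quartile scaling (adjusted p = 0.0961), after median-of-ratios scaling (0.346), without shScr replicate 3 (0.0512) or without shCTDP1-#2 replicate 3 (0.067), and its adjusted p was between 0.0151 and 0.346 over the alternatives. Here and below, alternatives exclude a stricter test, against a 1.5-fold change. Under that test the calls against shScr that held were those of chr17:39679869-39684560, chr12:52679697-52685318 and HSCHR17_4_CTG4:39215722-39216596, lower with each hairpin, and no call of a rise held.

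The overlapping interval chr17:38975358-38992522 was at 40.98 to 45.74 TPM with shScr, 47.09 to 55.98 TPM with shCTDP1-#1 and 48.29 to 57.68 TPM with shCTDP1-#2. Both knockdown groups lay above shScr. The log2 change was 0.27 (SE 0.084, limma adjusted p = 0.0151) with shCTDP1-#2, called, and 0.19 (SE 0.084, adjusted p = 0.0736) with shCTDP1-#1, not called. The shCTDP1-#2 call was lost after median-of-ratios scaling and without shScr replicate 3 or shCTDP1-#2 replicate 3 (adjusted p = 0.14, 0.0597 and 0.0605; 0.00548 to 0.14 over the alternatives). The first of these intervals shares 77.9% of its length with the second. The library kit does not record the strand, so reads in the shared part cannot be told apart by strand.

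At the end of the type II cluster, where RefSeq has KRT8 next to its partner KRT18, 2 intervals were among the most abundant members. The interval chr12:53290977-53343738 was at 331.92, 349.02 and 345.53 TPM with shScr. It reached 463.24, 479.62 and 473.99 TPM with shCTDP1-#1 and 414.3, 394.57 and 381.64 TPM with shCTDP1-#2. The 3 groups did not overlap, and shCTDP1-#1 was highest. On the log2 scale it rose by 0.46 (SE 0.037, limma adjusted p = 1.88e-06) with shCTDP1-#1 and by 0.21 (SE 0.037, adjusted p = 0.000555) with shCTDP1-#2, and the hairpins differed by -0.25 (adjusted p = 0.000274). After median-of-ratios scaling the change with shCTDP1-#2 was 0.08 and not called (adjusted p = 0.111; 0.000402 to 0.111 over the alternatives).

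The neighbouring interval chr12:53342655-53346685 did not follow the first. It was at 432.9, 458.82 and 442.12 TPM with shScr, 458.3, 447.58 and 436.42 TPM with shCTDP1-#1 and 531.31, 502.14 and 496.91 TPM with shCTDP1-#2. The shScr and shCTDP1-#1 values overlapped, and those of shCTDP1-#2 lay above both. The change with shCTDP1-#1 was 0.01, with a 95% interval from -0.07 to 0.09 (limma adjusted p = 0.844). With shCTDP1-#2 it rose by 0.20 (SE 0.037, adjusted p = 0.000905), a call lost after median-of-ratios scaling (0.06, adjusted p = 0.213; 0.000684 to 0.213 over the alternatives). The hairpins differed by 0.19 (adjusted p = 0.00176). The second interval shares 26.9% of its length with the first. Keratins have processed pseudogenes and close paralogs, so reads can be split between copies and the levels of such intervals are uncertain.

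**Figure D3:**
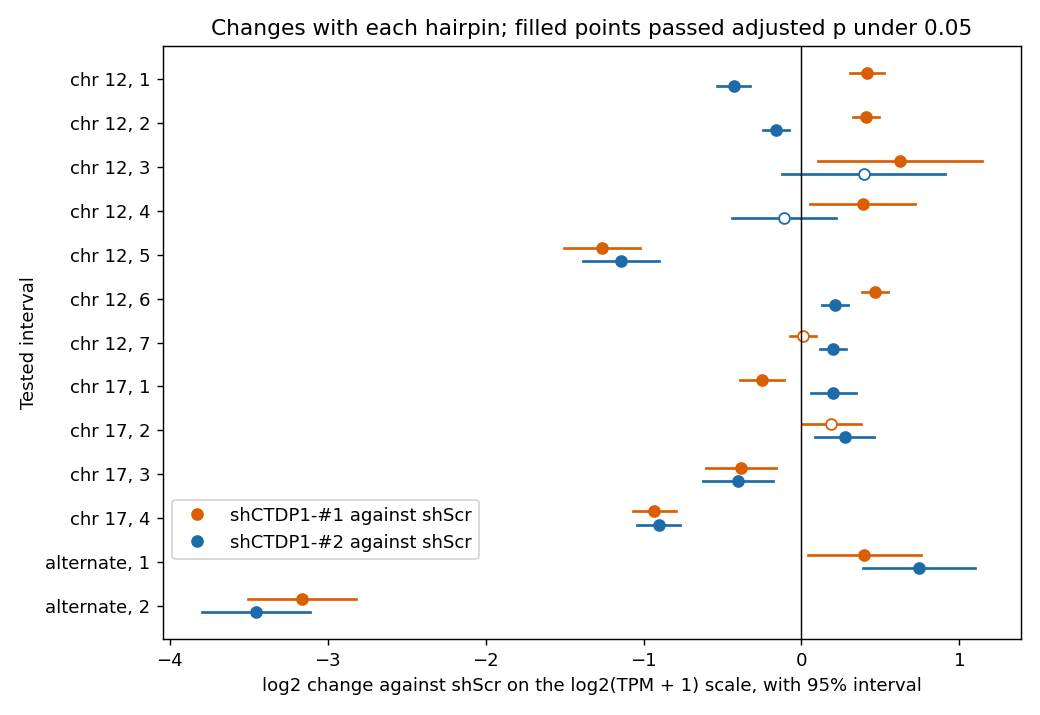
Change of each of the 13 tested intervals against shScr (horizontal axis, difference of mean log2(TPM + 1)) with its 95% interval, for both hairpins; filled points passed the adjusted p of 0.05. The first 2 intervals of chromosome 12 and the first of chromosome 17 have filled points on opposite sides of 0, and the second of the alternate sequence lies farthest from 0, at -3.16 and -3.45.

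The first stretch of the type II cluster, with KRT80 and KRT7 in RefSeq, separated the hairpins most clearly. The interval chr12:52562780-52585784 was at 57.39, 61.27 and 61.37 TPM with shScr, 79.05, 83.46 and 78.25 TPM with shCTDP1-#1 and 45.93, 43.71 and 43.17 TPM with shCTDP1-#2. No groups overlapped: shCTDP1-#1 was highest and shCTDP1-#2 lowest. The log2 change was 0.41 (SE 0.048, limma adjusted p = 3.02e-05) with shCTDP1-#1 and -0.43 (SE 0.048, adjusted p = 2.27e-05) with shCTDP1-#2. The difference between the hairpins was -0.84 (SE 0.048, adjusted p = 4.03e-07). That difference was larger in size than 92.8% of those of all tested intervals.

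The more abundant interval chr12:52626304-52645970 had the same order of groups. It was at 149.6, 153.32 and 150.9 TPM with shScr, 197.71, 204.92 and 200.75 TPM with shCTDP1-#1 and 141.54, 133.52 and 130.68 TPM with shCTDP1-#2. It rose by 0.41 (SE 0.038, limma adjusted p = 5.04e-06) with the first hairpin and fell by 0.16 (SE 0.038, adjusted p = 0.00349) with the second. The hairpins differed by -0.57 (adjusted p = 1.03e-06). These calls, and those of the previous interval, were kept in all 17 alternatives.

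Another 2 intervals near this one were low. The interval chr12:52638832-52641232, wholly inside the previous one and tested only because knockdown libraries reached 1 TPM, was at 0.17 to 0.7 TPM with shScr, 0.94 to 1.69 TPM with shCTDP1-#1 and 0.57 to 1.49 TPM with shCTDP1-#2. Its call with shCTDP1-#1 (0.62, limma adjusted p = 0.0373) was lost without shScr replicate 2 or 3 (adjusted p = 0.132 and 0.0665), with no filter (0.0622) and with the replicate block (0.0571). The long interval chr12:52643084-52702947, which spans part of the first stretch and of the hair keratins, was at 1.83 to 2.69 TPM with shScr, 2.87 to 3.34 TPM with shCTDP1-#1 and 1.55 to 2.07 TPM with shCTDP1-#2. Its call with shCTDP1-#1 (0.39, adjusted p = 0.0417) was lost in 8 of 16 alternatives, among them leaving out shScr replicate 1 or 3 (0.121 and 0.13) or any library of shCTDP1-#1 (0.118, 0.0782 and 0.0604). Its difference between the hairpins, -0.50 (adjusted p = 0.0168), was lost without shCTDP1-#1 replicate 1 (0.058) or shCTDP1-#2 replicate 3 (0.0627).

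In the hair keratin stretch of chromosome 12, 1 interval was well expressed, and it fell with both hairpins. The interval chr12:52679697-52685318 was at 14.24, 14.25 and 14.69 TPM with shScr, 5.21, 6.38 and 4.76 TPM with shCTDP1-#1 and 5.56, 6.64 and 5.75 TPM with shCTDP1-#2. All knockdown libraries were far below shScr, and the 2 knockdown groups overlapped. The mean was 0.379 and 0.416 times that of shScr, a log2 change of -1.26 (SE 0.108, adjusted p = 2.97e-06 by limma) with the first hairpin and of -1.14 (SE 0.108, adjusted p = 6.51e-06) with the second. The difference between the hairpins was 0.12, with a 95% interval from -0.12 to 0.36. This interval lies inside the long interval named above, whose level did not fall with shCTDP1-#1.

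The largest relative loss among the 13 tested members was on the alternate sequence. The sequence carries 23 intervals in the series, numbered between 39007052 and 39280887, and chromosome 17 itself has only 3 intervals in that span. None of the 23 shares both ends with one on chromosome 17, and 1 chromosome 17 interval overlaps an alternate interval in the numbering. Sequences were not compared, so a copy on the chromosome at a shifted position or with other ends could not be seen. In the keratin-associated stretch, HSCHR17_4_CTG4:39215722-39216596 was at 62.58, 53.99 and 50.52 TPM with shScr. It was at 4.06, 6.07 and 6.03 TPM with shCTDP1-#1 and at 4.07, 3.46 and 5.06 TPM with shCTDP1-#2.

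The mean of this interval was 0.0967 and 0.0753 times that of shScr, a log2 change of -3.16 (SE 0.155, adjusted p = 5.29e-08 by limma) with the first hairpin and of -3.45 (SE 0.155, adjusted p = 3.43e-08) with the second. Both changes were larger in size than 99.9% of those of all tested intervals. The hairpins differed by -0.29, with a 95% interval from -0.64 to 0.05 (adjusted p = 0.143), and without shCTDP1-#1 replicate 1 by -0.45 (adjusted p = 0.0233; 0.0233 to 0.38 over the alternatives). Its 2 nearest neighbours on that sequence, from 39210879 and from 39221598, stayed at or below 0.34 and 0.18 TPM in every library. Keratin-associated genes are short and occur in near-identical copies, so the division of reads among them is uncertain.

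The other tested interval there, HSCHR17_4_CTG4:39114796-39123271, belongs to the keratin part. It was at 0.54, 0.56 and 0.62 TPM with shScr, 0.79, 1.12 and 1.35 TPM with shCTDP1-#1 and 1.66, 1.86 and 1.4 TPM with shCTDP1-#2. The 3 groups did not overlap. With all shScr values under 1 TPM, it entered the test only through knockdown libraries, so the filter favoured a higher value there. The change with shCTDP1-#2 was 0.74 on the log2(TPM + 1) scale (SE 0.16, limma adjusted p = 0.00207), called higher. The change with shCTDP1-#1 was 0.40 (SE 0.16), at an adjusted p of 0.0496. That call was lost in 12 of 16 alternatives, with the adjusted p between 0.0109 and 0.162. Of these, 8 left out a library, any other than shCTDP1-#1 replicate 1, and the other 4 were no filter, median-of-ratios scaling, the replicate block and the fit of 2 groups. This tested interval lies wholly inside HSCHR17_4_CTG4:39077682-39132305, which was at 0 to 0.43 TPM over the libraries. How reads were divided between them was not tested.

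More of the intervals had a value above 0 once CTDP1 was targeted. Of the 117 intervals, 23, 29 and 27 were above 0 with shScr, 39, 45 and 36 with shCTDP1-#1, and 39, 33 and 39 with shCTDP1-#2. All knockdown libraries lay above all shScr libraries, with p = 0.1 for each hairpin by a two-sided exact permutation test, a value that a design of 3 and 3 cannot go below. Counting only values of 0.1 TPM or more, the means were 22.3 with shScr, 28.3 with shCTDP1-#1 (p = 0.1, exact) and 27 with shCTDP1-#2 (p = 0.3, exact). Over all intervals of the series the numbers above 0 were also higher, 19553 to 20063 with shScr and 21562 to 22491 in the knockdown libraries. Sequencing depth is unknown here, and its part in these numbers was not tested.

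Of the 117 intervals, 54 were above 0 in some library but stayed under 1 TPM. Of these low intervals, 17 lay in the epithelial type II stretch of chromosome 12, which holds 31 of the 117. In RefSeq that stretch has KRT5, KRT6A and KRT1 among others. Of the 17 intervals there that were above 0 in some library, 15 were at 0 in all 3 shScr libraries. Of these, 14 in shCTDP1-#1 and 12 in shCTDP1-#2 had a value in at least 1 library, and none of the 17 was listed in shScr alone. The highest value among the 17 was 0.44 TPM, in shCTDP1-#1 replicate 3 at chr12:52880958-52887041. Low intervals at 0 in all shScr libraries were not particular to this stretch. They were 4 of 4 in the first type I stretch of chromosome 17 and 3 of 4 in its keratin-associated stretch. In the hair keratin stretch of chromosome 12 they were 3 of 4. Shares were lower in the last type I stretch (4 of 9) and the first type II stretch (0 of 2). Among all 54 low members 33 (61.1%) were at 0 in all shScr libraries. Among all 12228 intervals of the series that were above 0 but never reached 1 TPM, 47.8% were at 0 in all shScr libraries and 5.99% were listed in shScr alone. There are 6 knockdown libraries against 3 with shScr, which by itself raises the first share and lowers the second. Against shCTDP1-#1 alone, 3 libraries against 3, 4267 of these intervals appeared only with the hairpin and 1309 only with shScr. For shCTDP1-#2 against shScr the numbers were 3823 and 1282.

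On the alternate sequence the groups overlapped in this count, which was 6, 7 and 6 with shScr, 7, 8 and 4 with shCTDP1-#1 and 5, 5 and 8 with shCTDP1-#2. In its keratin-associated stretch 3 of 10 low intervals were listed in shScr alone, beside 5.99% of all low intervals of the series. Each of the 3 had a value in only 1 or 2 libraries, at 0.08 to 0.17 TPM. Another 3 of the 10 were at 0 in all shScr libraries.

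Summed over each region, the knockdown libraries lay below shScr on chromosome 17 and above it on chromosome 12. The chromosome 17 sum was 564.38, 590.26 and 600.21 TPM with shScr, 336.4 to 361.5 TPM with shCTDP1-#1 and 342.88 to 373.18 TPM with shCTDP1-#2. The interval from 39679869 made up 70.8% to 85.7% of it, so the sum follows that 1 interval. The chromosome 12 sum was 1016 ± 25.4 TPM with shScr (SD, n = 3), 1213 ± 14.8 TPM with shCTDP1-#1 and 1097 ± 42.1 TPM with shCTDP1-#2, but after median-of-ratios scaling the last group differed from shScr by -17.73 TPM. Its highest member made up 38.3% to 46.8%. For both sums and either hairpin the exact permutation p was 0.1 (two-sided), again the smallest possible; after that scaling the chromosome 12 sum with shCTDP1-#2 gave p = 0.6 (exact). All members together held 0.141% to 0.169% of the TPM of a library.

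**Figure D4:**
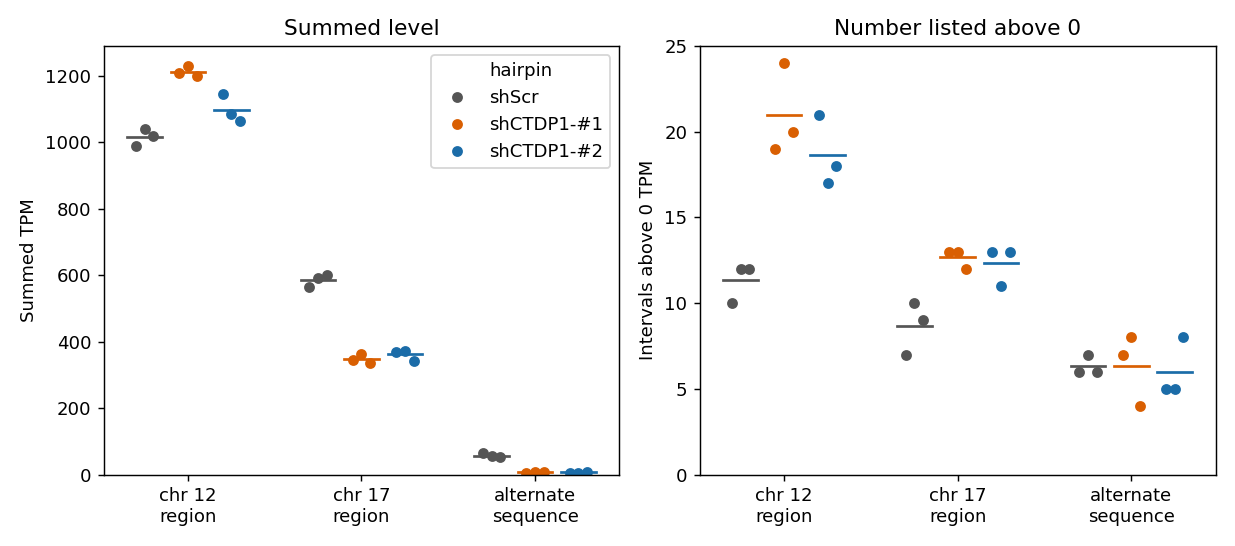
Summed TPM (left) and number of intervals listed above 0 TPM (right) for the chromosome 12 region, the chromosome 17 region and the alternate sequence; points are single libraries, 3 a group, bars are group means, and both vertical axes start at 0. The chromosome 17 sums of the knockdown libraries lie between 336.4 and 373.18 TPM, below the shScr libraries.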

How the data were processed

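RNA from 9 libraries (3 a group) was measured by sequencing. The tools named in the submitters' processing notes are STAR and RSEM, with hg19 as the build; their versions and the annotation are not given in the sources used here. For every library the authors deposited 1 value per genomic interval. The deposited values are taken as TPM, since each file's total is 999999 or 1000000 with 2 decimals a value. Depth is therefore unknown, and no counting interval is given.

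The 9 files were joined on coordinates; of 57773 rows, 2246 whose interval is not their own were dropped. All 37 mitochondrial intervals had the ends that GENCODE v29 gives, so starts count from 1. The fit of log2(TPM + 1) used limma 3.58.1 with its trend and robust settings (R 4.3.3, statmod 1.5.0), group means of all 9 libraries and 6 residual degrees of freedom. Changes on this scale understate those of low intervals. Single values per library were compared by exact permutation. Values are given for each tested interval with a mean of at least 5 TPM in a group and for the 10 largest called changes against shScr; together these are all 13 tested members. Other low intervals named were chosen after their values were seen. The members, stretches and tests were chosen with earlier results of these data known. The mitochondrial share was 4.47% in shScr replicate 1 and 1.12% to 2.28% in the others. The level of CTDP1 and cell line markers were not analysed here. Alternatives covered the pseudocount, filter, scaling, fit options, replicate block and each library left out. The 1.5-fold test was run beside them.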

Additional observations from a re-analysis of the deposited data

Results flagged for a closer look

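For 6 of the 13 tested intervals the 2 hairpins gave different changes, by the limma test of shCTDP1-#2 against shCTDP1-#1, in which 50.2% of all tested intervals were called. On chromosome 12 the difference (shCTDP1-#2 minus shCTDP1-#1, log2) was -0.84 at chr12:52562780-52585784 and -0.57 at chr12:52626304-52645970, which were both higher with shCTDP1-#1 and lower with shCTDP1-#2 than with shScr. It was -0.50 at chr12:52643084-52702947 and -0.25 at chr12:53290977-53343738, and 0.19 at chr12:53342655-53346685. On chromosome 17 it was 0.45 at chr17:38974369-38978847. None of the 4 members called lower with both hairpins was among the 6.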

How the results depend on the processing

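The counts of members called lower with each hairpin (5 and 6) and with both (4) did not change when any library was left out. The test against a 1.5-fold change, which asks for more, called 3 members lower for each hairpin and 1 between them, with 0 higher in any of the 3 comparisons, 0 higher with both and 0 in opposite directions. Higher calls varied more. Requiring 5 TPM gave 3 with shCTDP1-#1, as fewer members were tested (10), and median-of-ratios scaling gave 1 with shCTDP1-#2. Leaving out each library gave 3 to 5 with either hairpin; the lowest came without shScr replicate 3 for both, without shCTDP1-#1 replicate 2 for the first and without shCTDP1-#2 replicate 3 for the second. The 2 members higher with both became 1 with no filter, at 5 TPM, with the replicate block and in the fit of 2 groups, 0 after median-of-ratios scaling, and 1 to 2 with libraries left out. The chromosome 12 sum with shCTDP1-#2 turned to -17.73 TPM after that scaling. Beyond the fewer members tested, the cause of these shifts was not tested.

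Over all alternatives and the 1.5-fold test together, the changes of single intervals kept direction and call 615 times. They lost a call 56 times, gained one 2 times and turned sign 11 times. Changes that turned sign were near 0. For chr17:39679869-39684560 between the hairpins the change was -0.037 after upper-quartile and -0.046 after median-of-ratios scaling, and -0.016 to 0.09 with libraries left out; for chr12:53342655-53346685 with shCTDP1-#1 it was -0.053 after median-of-ratios scaling and -0.01 to 0.032; for chr17:39669995-39678781 between the hairpins -0.084 to 0.059; and for chr12:52643084-52702947 with shCTDP1-#2 -0.181 to 0.011.

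Replicate numbers recur in each group, and the labels do not say what same-numbered libraries share. Residuals of same-numbered libraries correlated at -0.01 to 0.05, beside -0.05 to 0.02 for other pairs. For 8 of 9 libraries the highest correlation was with a library of their own number, a hint in the data and not in the design. Whether same-numbered libraries share a batch was not tested. With the replicate block, HSCHR17_4_CTG4:39114796-39123271 (adjusted p = 0.0731) and chr12:52638832-52641232 (0.0571) lost their limma calls with shCTDP1-#1, and no other of the 13 members changed its call against shScr. Summing copies with the same ends on chromosome 17 and the alternate sequence was not run, since no pair exists. Depth is unknown, so how far it limits the low intervals could not be measured.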

Other observations

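The 2 intervals at the end of the chromosome 12 region kept a near-constant ratio in 2 of the groups, a comparison chosen after the values were seen and given without a test. The TPM of chr12:53342655-53346685 divided by that of chr12:53290977-53343738 was 1.304, 1.315 and 1.28 in the shScr libraries and 1.282, 1.273 and 1.302 with shCTDP1-#2. It was 0.989, 0.933 and 0.921 with shCTDP1-#1.

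In the hair keratin stretch, chr12:52708085-52715182 had a value above 0 in all 9 libraries without reaching the filter: 0.21, 0.15 and 0.17 TPM with shScr, 0.21, 0.12 and 0.05 TPM with shCTDP1-#1 and 0.06, 0.06 and 0.02 TPM with shCTDP1-#2. In the last type I stretch, chr17:39533902-39538655 was likewise above 0 in all libraries, at 0.74 to 0.8 TPM with shScr, 0.41 to 0.84 TPM with shCTDP1-#1 and 0.18 to 0.49 TPM with shCTDP1-#2. The third such interval, chr12:53215194-53228079, had overlapping groups, at 0.4, 0.13 and 0.41 TPM with shScr, 0.33, 0.2 and 0.13 TPM with shCTDP1-#1 and 0.36, 0.37 and 0.23 TPM with shCTDP1-#2. None of these was tested.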
